A study of Rattus norvegicus with 89 samples.

Results

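The genes described here encode proteins of the mitochondrial ribosome and were followed in kidney RNA of 89 rats. They were chosen by name, as every gene whose single symbol on the array starts with Mrps or Mrpl followed by a number. The rule took 97 of 20826 probe sets with 1 gene symbol, which stand for 73 of 14217 named genes, and all 73 were among the 11420 genes bright enough to be tested. Of the 73 genes, 27 carry the Mrps name of the small subunit and 46 the Mrpl name of the large subunit. By a list drawn up for this report, 41 have a counterpart in the bacterial ribosome. Among the 32 others, Mrpl47 and Mrps28 were not on that list although human nomenclature ties both to bacterial proteins.

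The rats were Crl:CD(SD) Sprague-Dawley animals of both sexes, and 1 array was run for each, on RNA from the apical parts of both kidneys. Gentamicin, tobramycin, cisplatin, cadmium, doxorubicin or valproic acid was given daily for 1 or 5 days, the controls received saline for the same time, and naive rats received nothing. Groups had 6 rats, except 7 for saline at day 1 and 5 each for doxorubicin and saline at day 5, with 44 males and 45 females in all. Doses are not in the labels used here.

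The mitochondrial ribosome makes the respiratory chain and ATP synthase subunits that mitochondrial DNA encodes. Its RNAs come from mitochondrial DNA, while its proteins are encoded in the nucleus, made in the cytosol and imported. Its small subunit RNA resembles that of bacteria, and aminoglycoside antibiotics such as gentamicin and tobramycin bind the decoding site of the bacterial small subunit RNA and accumulate in proximal tubule cells. The comparisons below ask whether the kidney mRNAs of these proteins differed between rats given a compound and rats given saline. They measure mRNA in bulk tissue, where fewer cells of a type and less RNA per cell cannot be told apart.

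The 73 genes lie on 18 chromosomes, none of them X or Y, with 12 on chromosome 10 and 12 on chromosome 1. A RefSeq promoter of the GRCr8 build, from 250 bases before to 50 bases after the start, was matched for 59 of them. Promoters are shown because the mRNAs moved weakly together between rats, and they were searched on both strands for GCATGCGC, the core bound by NRF1, for CCGGAAG, bound by factors of the ETS family, and for AAGATGGCG, bound by YY1. These factors are known for their sites at nuclear genes of mitochondrial proteins. The Mrpl17 window (chr1:169575650-169575949, minus strand) holds the NRF1 letters 3 times. The Mrps18b window (chr20:2842756-2843055, plus strand) holds NRF1 and ETS letters. The Mrpl46 window (chr1:142116981-142117280, minus strand) holds the YY1 letters. The start used for the Mrps11 promoter lies 234 bases away on the other strand. The gene entries lie closer, with Mrpl46 ending at base 142117030 and Mrps11 beginning at base 142117045. The Mrps25 window (chr4:126237163-126237462, minus strand) holds none of the 3 and is shown because Mrps25 had the largest sex difference of the 73 genes. Capitals mark the matches and overlapping matches run together.
Mrpl17: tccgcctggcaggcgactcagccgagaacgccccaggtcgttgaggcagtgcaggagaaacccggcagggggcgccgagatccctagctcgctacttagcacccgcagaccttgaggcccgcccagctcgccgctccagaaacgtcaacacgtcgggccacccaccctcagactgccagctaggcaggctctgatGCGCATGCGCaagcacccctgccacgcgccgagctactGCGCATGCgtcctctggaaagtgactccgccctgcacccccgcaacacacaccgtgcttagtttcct
Mrps18b: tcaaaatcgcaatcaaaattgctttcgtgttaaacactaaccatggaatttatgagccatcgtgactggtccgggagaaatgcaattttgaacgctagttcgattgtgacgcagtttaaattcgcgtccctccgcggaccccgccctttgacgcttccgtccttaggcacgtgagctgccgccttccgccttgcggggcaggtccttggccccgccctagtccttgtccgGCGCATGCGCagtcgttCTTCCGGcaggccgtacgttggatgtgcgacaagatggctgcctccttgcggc
Mrpl46: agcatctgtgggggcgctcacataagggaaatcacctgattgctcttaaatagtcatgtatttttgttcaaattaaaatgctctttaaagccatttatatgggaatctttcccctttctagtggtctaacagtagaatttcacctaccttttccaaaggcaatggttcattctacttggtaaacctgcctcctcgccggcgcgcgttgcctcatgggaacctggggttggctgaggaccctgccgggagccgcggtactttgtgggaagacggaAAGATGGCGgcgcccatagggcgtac
Mrps25: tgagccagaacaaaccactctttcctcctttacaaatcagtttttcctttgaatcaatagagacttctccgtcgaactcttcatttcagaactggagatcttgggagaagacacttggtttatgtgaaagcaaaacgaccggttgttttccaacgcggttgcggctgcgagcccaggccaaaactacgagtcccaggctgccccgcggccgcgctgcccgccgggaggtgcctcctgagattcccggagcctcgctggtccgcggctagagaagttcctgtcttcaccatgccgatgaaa

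The ETS letters were in 33.9% of the 59 promoters, against 17.3% of the promoters of 9482 genes tested on the arrays and 9.22% of all 27457 promoters. The YY1 letters were in 13.6%, against 3.77% and 1.93% in the same sets. The NRF1 letters were in 8.47%, against 4.82% and 2.66%. At least 1 of the 3 motifs was present in 29 of the 59, or 49.2%, against 23.7% of the genes tested. A gene on the other strand started within 1000 bases upstream of 18 of the 59 (30.5%), against 15.4% of the genes tested. Mrps11 and Mrpl46 are such a pair within the family. Shares near those of the members were found in the respiratory chain list. Among 68 promoters of nuclear genes of the respiratory chain and ATP synthase the ETS letters were in 27.9%, the YY1 letters in 14.7%, the NRF1 letters in 10.3%, and a start on the other strand was found for 30.9%. In 37 promoters of cytosolic ribosomal proteins the same 4 shares were 21.6%, 8.11%, 5.41% and 10.8%. These are matches of letters and not measured binding.

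Every member lay above the limit of the filter for dim genes on every array. Signals are given as scaled signal, the deposited intensity after each array was brought to a common trimmed mean. That limit was a scaled signal of 31.7, the 40th percentile of all values, and is not a test of detection. The members' median signals ran up to 1688 for Mrps6. Between rats of the same group and sex the members varied little. Their residual SD had a median of 0.14 on the log2 scale, against 0.20 for all genes tested and 0.18 for the 6933 genes in the members' range of signal. At the ends of this range, named after their values were seen, Mrpl17, the counterpart of bacterial L17, had an SD of 0.08 and Mrpl38, a large subunit protein, had an SD of 0.38.

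The members moved together only in part. After group and sex were removed, the median correlation between pairs of members was 0.16 over the 89 rats, against 0.01 between pairs of all genes, 0.38 within 74 nuclear genes of the respiratory chain and ATP synthase, and 0.52 within 40 cytosolic ribosomal protein genes. All points of such a correlation share the array and its RNA quality. Probe sets of the same gene did not track each other well either. For the 24 further probe sets of 18 genes the correlation with the chosen set ranged from -0.33 to 0.60, with a median of 0.10.

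Array quality differed between rats and touches the results below. The GAPDH control probe sets give the signal at the 3' end over the 5' end, which is higher in degraded or shortened RNA. The log2 ratio lay between 0.15 and 0.81 on 85 arrays and was 1.04, 1.24, 1.45 and 1.58 on the other 4, all from females, in valproic acid at day 5, valproic acid at day 1, cadmium at day 5 and saline at day 5. A score for each rat was taken as the mean log2 deviation of the 73 genes from control rats of the same sex, minus the same mean for all genes tested. The rat of saline at day 5 (1F106) scored 0.14, that of valproic acid at day 5 scored 0.14, that of valproic acid at day 1 scored 0.11 and that of cadmium at day 5 scored -0.06. The lowest score of all 89 rats was -0.13 and the highest 0.14. The median was -0.02.

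No mitochondrial ribosomal protein gene passed the test after any compound on either day. An adjusted p under 0.05 (limma, Benjamini-Hochberg over 11420 genes, sex as a further term) counted as called. Of the 876 tests of a member after a compound, 0 were called and the smallest adjusted p was 0.36. Their log2 changes ran from -0.41 to 0.32, with a median size of 0.06, against 0.09 for all genes. A p under 0.05 before adjustment was seen in 29 of them (3.31%), against 6.67% of the tests of all genes. The 95% interval lay within a 1.5-fold change in either direction for 867 tests (99.0%), against 87.1% for all genes. The number of rats per group limits the precision further.

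Few genes of any kind were called in these comparisons. The share of all genes called was 0% after gentamicin at day 1, 0.0613% after tobramycin at day 1, 0% after cisplatin at day 1, 0.0263% after cadmium at day 1, 0.0438% after doxorubicin at day 1 and 0.0788% after valproic acid at day 1. At day 5 it was 0% after gentamicin, 0% after tobramycin, 0.00876% after cisplatin, 0% after cadmium, 0.114% after doxorubicin and 0% after valproic acid. With both aminoglycosides pooled against saline it was 0% on either day, for members and for all genes. When all 89 arrays were fitted at once, so that every group adds to the estimate of the spread, 0 members were called after a compound and the smallest adjusted p was 0.19.

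**Figure D1:**
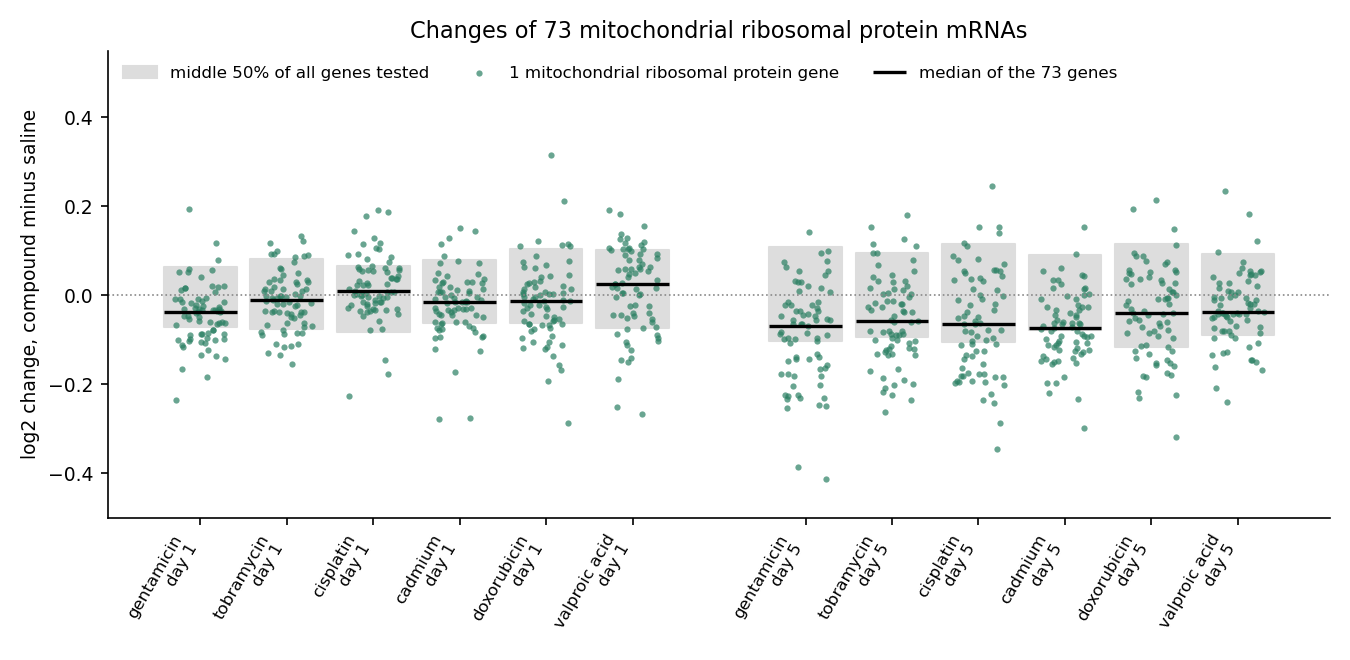
Log2 change of each of the 73 genes after each compound (vertical axis, compound minus saline of the same day). Each green point is 1 gene, the black line is the median of the 73 and the grey band holds the middle 50% of all 11420 genes tested. Most points lie inside or near the band, and the medians of all 6 compounds at day 5 lie below 0.

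On unscaled intensities the median of all genes shifted by -0.31 to 0.36 between comparisons, so changes are given relative to the scaled arrays. After gentamicin the members' median log2 change was -0.04 at day 1, with 15 of 73 genes above 0, and -0.07 at day 5, with 16 above 0. After tobramycin it was -0.01 at day 1, with 29 above 0, and -0.06 at day 5, with 22 above 0. The medians of all genes were -0.01 and -0.0022 after gentamicin and within 0.01 of 0 after tobramycin. With both drugs together the members' median was -0.03 at day 1 and -0.06 at day 5. Medians below 0 were also found for the other compounds at day 5. The members' median at day 5 was -0.06 after cisplatin, -0.07 after cadmium, -0.04 after doxorubicin and -0.04 after valproic acid, and all 6 values share the same 5 saline rats.

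Those 5 saline rats differed among themselves, with scores of -0.04, 0.14 (1F106), 0.01, 0.07 and -0.04. The rat 1F106, with the highest GAPDH ratio, was the highest of the 5 for 33 of the 73 genes and the lowest for 21. Of the 15 groups, saline at day 5 held the highest group mean for 21 of the 73 genes, and the share over all genes was not counted. The lowest group mean was held by gentamicin at day 1, gentamicin at day 5 and cadmium at day 5 for 10 genes each and by the naive rats for 11. Against naive rats the members' median was 0.03 in saline rats at day 1 and 0.06 in saline rats at day 5, with 0 members called and 0% of all genes called in both. Without the saline rat of the highest GAPDH ratio, the members' median minus that of all genes in saline at day 5 against naive rats was 0.0052, against 0.05 with it. The same difference after gentamicin at day 5 was -0.07 without that rat, -0.07 with it and -0.04 with naive rats as the control. After tobramycin at day 5 it was -0.02 without that rat, -0.06 with it and -0.01 against naive rats.

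**Figure D2:**
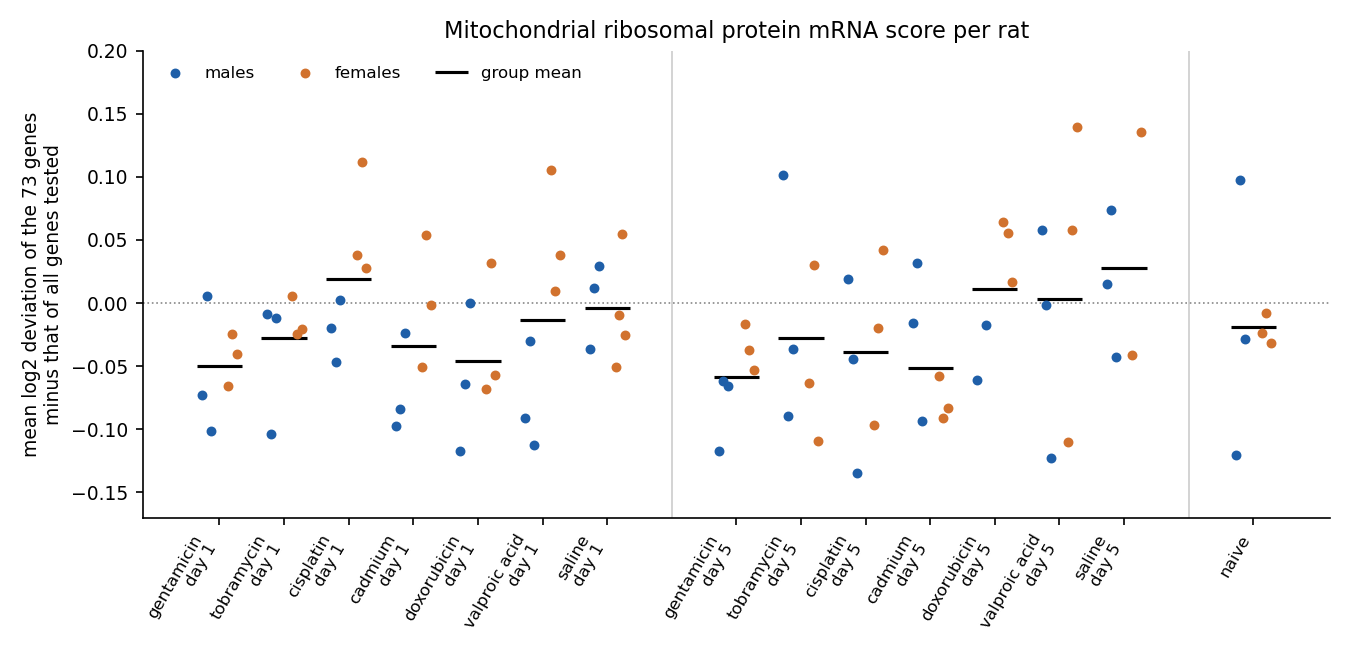
Score of the 73 genes in each rat (vertical axis, mean log2 deviation from control rats of the same sex, minus that of all genes tested), with males in blue, females in orange and group means as black lines. The groups overlap throughout, and rats of 1 group spread over at most 0.26 on this scale, in valproic acid at day 5.

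In scores, the gentamicin rats averaged -0.05 ± 0.04 at day 1 and -0.06 ± 0.03 at day 5 (SD, n = 6 each). The tobramycin rats averaged -0.03 ± 0.04 at day 1 and -0.03 ± 0.08 at day 5 (SD, n = 6 each). The saline rats averaged -0.0036 ± 0.04 at day 1 (SD, n = 7) and 0.03 ± 0.08 at day 5 (SD, n = 5), and the naive rats -0.02 ± 0.07 (SD, n = 6). Every gentamicin group overlapped its saline group. In gentamicin rats at day 5 all scores were below 0, from -0.12 to -0.02, while the saline rats of that day ran from -0.04 to 0.14.

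Among the small subunit proteins, Mrps12 stands at the decoding centre as the counterpart of bacterial S12, the protein in which streptomycin resistance mutations arise in bacteria. Its signal at day 1 had a lowest, median and highest value of 483, 553 and 592 in gentamicin rats, 496, 522 and 599 in tobramycin rats, and 511, 573 and 642 in saline rats. At day 5 the lowest, median and highest values were 486, 540 and 612 in gentamicin rats and 509, 569 and 693 in tobramycin rats. The 5 saline rats of day 5 had 530, 545, 615, 634 and 844, the last in the rat with the highest GAPDH ratio. The ranges of the groups overlapped on both days. The log2 change of Mrps12 was -0.08 (95% interval -0.22 to 0.07) after gentamicin at day 1 and -0.11 (-0.25 to 0.02) after tobramycin at day 1. At day 5 it was -0.20 (-0.46 to 0.05) after gentamicin and -0.10 (-0.37 to 0.17) after tobramycin, and the smallest adjusted p of Mrps12 over the 12 compound comparisons was 0.70.

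Rats carry 3 genes for counterparts of bacterial S18. Mrps18b had a log2 change of 0.12 (95% interval -0.03 to 0.27) after gentamicin at day 1, the second highest of the 73 genes in that comparison. Mrps18c ran from -0.11 after gentamicin at day 5 to 0.11 after cisplatin at day 1. Mrps18a and Mrps30, which structures of the mammalian ribosome place in the large subunit despite their names, ran from -0.22 after gentamicin at day 5 to 0.15 after valproic acid at day 1 and from -0.13 after cadmium at day 5 to 0.09 after tobramycin at day 1. Mrps22, a small subunit protein with no bacterial counterpart, ran from -0.17 after doxorubicin at day 1 to 0.07 after cisplatin at day 5. None of these genes passed the test in any comparison with saline.

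Of the large subunit proteins, Mrpl48 of the central protuberance had the lowest log2 change of the 73 genes after gentamicin on both days. At day 1 its signal had a lowest, median and highest value of 334, 371 and 411 in gentamicin rats, 389, 448 and 488 in tobramycin rats, and 382, 447 and 481 in saline rats. At day 5 the lowest, median and highest values were 369, 415 and 476 in gentamicin rats and 409, 450 and 588 in tobramycin rats. The saline rats of day 5 had 404, 456, 516, 575 and 871, the last in the rat with the highest GAPDH ratio. The gentamicin and saline ranges overlapped on both days, at day 1 through 1 low saline rat of 382. The log2 change of Mrpl48 was -0.24 ± 0.07 (SE) after gentamicin at day 1, with an adjusted p of 0.56, and -0.41 ± 0.13 at day 5, with an adjusted p of 0.76, both from limma. After tobramycin it was -0.01 at day 1 and -0.23 at day 5. Without the saline rat of the highest ratio the value after gentamicin at day 5 was -0.26. For both drugs together at day 5 it was -0.31 against saline and 0.08 against naive rats, so its sign rested on the control.

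**Figure D3:**
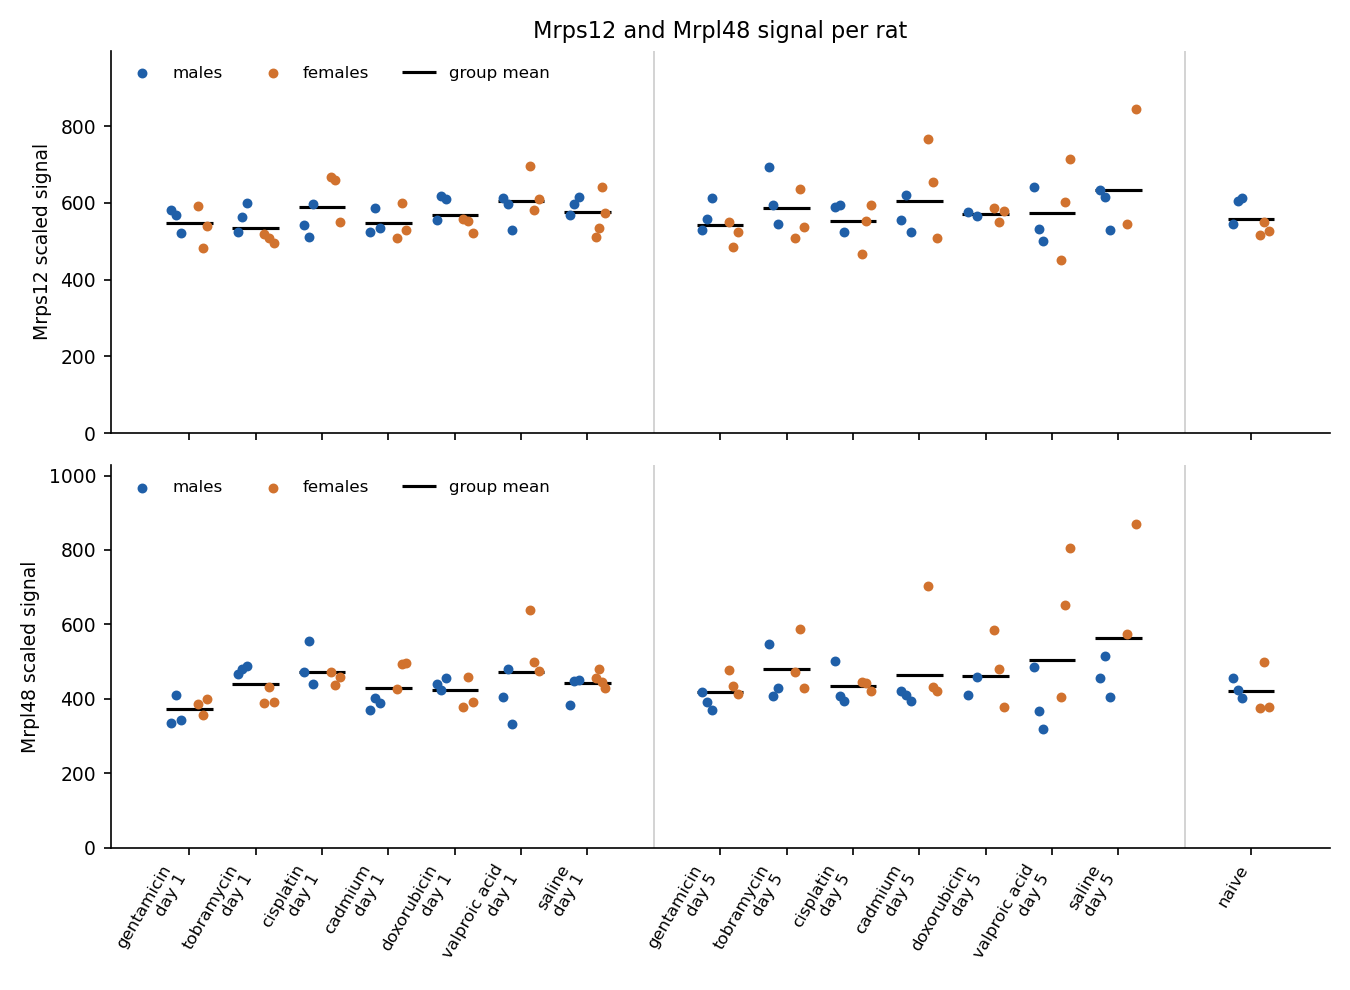
Scaled signal of Mrps12 (upper panel) and Mrpl48 (lower panel) in each rat, with males in blue, females in orange and group means as black lines. Mrpl48 lay between 334 and 411 in gentamicin rats of day 1 and between 382 and 481 in saline rats of that day, and both genes had their highest value in the same saline rat of day 5.

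Mrpl12 is the counterpart of the bacterial stalk protein L12 and also binds the mitochondrial RNA polymerase. Its log2 change was below 0 in 12 of 12 compound comparisons, which share their saline rats, from -0.25 after gentamicin at day 5 to -0.01 after cisplatin at day 1. Its smallest adjusted p was 0.66. Mrpl3, a core protein near the peptidyl transferase centre, ran from -0.04 to 0.09. Mrpl58, a peptidyl-tRNA hydrolase that frees stalled ribosomes and is also a part of the large subunit, ran from -0.18 after gentamicin at day 5 to 0.03 after valproic acid at day 1.

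The remaining members at the ends of the aminoglycoside comparisons were likewise not called. After gentamicin at day 1 the highest value was 0.19 for Mrpl4, which lines the exit tunnel, and the lowest after Mrpl48 was -0.18 for Mrpl44. After tobramycin at day 1 Mrps25 had 0.13 and Mrpl43 0.12, which turned to -0.19 and -0.20 on unscaled intensities, and Mrps28 had -0.15 and Mrpl55 -0.13. After gentamicin at day 5 Mrps2, the counterpart of bacterial S2, had 0.14 and Mrpl32 had 0.10, and Mrps6, the counterpart of S6, had -0.39. After tobramycin at day 5 Mrpl47 had 0.18 and Mrpl50 0.15, and Mrps35 had -0.26 and Mrpl2, the counterpart of L2, had -0.24. With both drugs together at day 1 Mrpl4 had 0.14 and Mrps25 0.10, and Mrps6 had -0.15 and Mrps11 -0.13. With both at day 5 Mrpl47 had 0.14 and Mrpl50 0.11, and Mrpl48 and Mrps6 had -0.31 and -0.29. The adjusted p of these values lay between 0.66 and 0.997 (limma). For Mrpl50 with both drugs at day 5 the sign rested on the probe set, since a second and dimmer one gave -0.17.

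Gentamicin and tobramycin were also compared with each other, although their doses are not known here. At day 1 and at day 5 0 members were called, with 0% of all genes called in both. The smallest adjusted p of a member was 0.58 at day 1 and 0.84 at day 5. Mrpl48 was -0.24 in gentamicin minus tobramycin rats at day 1 (95% interval -0.41 to -0.07) and -0.18 at day 5 (-0.38 to 0.01). For Mrps12 the day 1 difference was 0.03 (95% interval -0.11 to 0.17) and the day 5 difference -0.10 (-0.27 to 0.07). The intervals of 73 of 73 members at day 1 and 72 of 73 at day 5 lay within 1.5-fold.

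The effect at day 5 minus the effect at day 1 was tested for each compound, and 0 members were called. Of all genes, 0% were called for gentamicin, tobramycin, cisplatin, cadmium and valproic acid, and 0.0613% for doxorubicin. The members' median difference ran from -0.09 for cisplatin to -0.02 for doxorubicin.

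In an F test of any difference among the groups, 0 of 73 members were called, against 508 of 11420 genes, or 4.45%. A p under 0.05 before adjustment was found for 4 members (5.48%), against 17.4% of all genes. Mrps2 had the largest F, 2.41 with an adjusted p of 0.10, followed by Mrps17, the counterpart of S17, with 2.07 and an adjusted p of 0.19. Mrps2 averaged 268 ± 48 in valproic acid rats of day 1 (SD, n = 6) and 332 ± 27 in gentamicin rats of day 1 (SD, n = 6), the lowest and the highest of its group means, and 319 ± 23 in saline rats of day 1 (SD, n = 7). Mrpl51, Mrpl52, Mrpl15, Mrps22, Mrpl48 and Mrpl44 followed, with F between 1.73 and 1.89 and adjusted p between 0.26 and 0.33. The range between the lowest and highest group mean of a member had a median of 0.22 on the log2 scale and ran from 0.08 for Mrpl3 to 0.54 for Mrpl48.

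The genes that work with this ribosome were not called against saline either. Of 15 mitochondrial translation factors, 16 mitochondrial aminoacyl-tRNA synthetases, 25 genes of ribosome assembly and rRNA modification, 10 of mitochondrial transcription, 17 of the mitochondrial protein stress response, 74 of the respiratory chain and ATP synthase and 40 cytosolic ribosomal proteins, 0 were called after any compound. In the F test 4.45% of all genes were called. Some genes of these lists were called too, over the lists together at a share near that one. In the stress response list these were Atf4, a transcription factor of the integrated stress response, with F of 5.90 and an adjusted p of 3.25e-05, Gdf15, a secreted stress signal, and Mthfd2, an enzyme of mitochondrial folate metabolism. Others were Fars2, the mitochondrial phenylalanyl-tRNA synthetase, Pprc1, a coactivator of NRF1 targets, Nsun4 and Dhx30, which act on mitochondrial rRNA and ribosome assembly, and Rpl3 of the cytosolic ribosome. The leukocyte markers Ptprc, Csf1r and Cd68 were called as well, 3 of 3 tested, and their part in the values of the members was not tested.

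Sex was the term for which members were called, as were most genes on the array. The median size of the sex difference was 0.09 on the log2 scale over the 73 members, against 0.14 over all genes. Over all 89 rats with group as a term, 45 of 73 members were called (61.6%), against 64.3% of all genes, so the share of members called was near the background. On scaled arrays the direction of the calls ran the other way from that of all genes. Of the members 33 were higher in males and 12 were higher in females, whereas 23.9% of all genes were called higher in males and 40.4% higher in females. The members' median male minus female difference was 0.05 on the log2 scale and that of all genes was -0.05. The split of the members depended on scaling in size but not in direction. On unscaled intensities 18 members were higher in males and 2 higher in females, with 34.0% of all genes called. There the median of all genes was also above 0, at 0.02, against 0.12 for the members, so the sign for all genes rested on scaling. In the 18 control rats alone 12 members were higher in males and 3 higher in females, with 23.6% of all genes called.

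Called genes came from both subunits, while 64.3% of all genes tested were called for sex, 23.9% higher in males and 40.4% higher in females. Of 27 Mrps genes 12 were higher in males and 5 higher in females, and of 46 Mrpl genes 21 and 7. Of the 41 genes with a bacterial counterpart 21 were higher in males and 7 higher in females, and of the 32 others 12 and 5. Most differences were small: the called members had a median size of 0.13 on the log2 scale, and 3 of the 45, Mrps25, Mrps35 and Mrpl14, exceeded 0.3 on that scale.

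Mrps25, a small subunit protein with no bacterial counterpart, had the largest difference. Its signal had a lowest, median and highest value of 910, 1119 and 1318 in males and 606, 797 and 1040 in females. Males were higher in 15 of 15 groups, and in 12 of these the lowest male was above the highest female. The log2 difference was 0.49 ± 0.04 (SE), or 1.40-fold, with an adjusted p of 4.04e-21 in limma. It was 0.47 in the control rats alone and 0.46 with the GAPDH ratio as a covariate. By group it ran from 0.13 to 0.71.

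Several other genes were also called higher in males. Mrpl50 had 0.26 ± 0.03, Mrpl49 0.22 ± 0.03, Mrpl20, the counterpart of bacterial L20, 0.23 ± 0.03, and Mrpl15, the counterpart of L15, 0.21 ± 0.03 (log2 difference ± SE), and males were higher in 15 of 15 groups for each of them. Mrpl42 had 0.24 ± 0.03. A second probe set agreed in sign for Mrpl49, at 0.36, and for Mrpl50, at 0.17, both called.

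On the female side Mrps35, another small subunit protein with no bacterial counterpart, led. Its signal had a lowest, median and highest value of 332, 434 and 602 in males and 390, 555 and 852 in females. The sexes overlapped, yet the mean of males was lower in 15 of 15 groups. The log2 difference was -0.36 ± 0.04 (SE), with an adjusted p of 2.22e-11 in limma, and -0.30 with the GAPDH ratio as a covariate. The value of 852 came from the saline rat with the highest ratio.

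Mrpl14, the counterpart of bacterial L14 at the face that joins the subunits, had -0.31 ± 0.04 and was lower in males in 14 of 15 groups. Mrpl23, which stands at the mouth of the exit tunnel, had -0.21 ± 0.04, Mrpl1, the protein of the L1 stalk, -0.17 ± 0.03, and Mrps15, the counterpart of S15, -0.17 ± 0.04. The sign for Mrps15 rested on the probe set, since a second and dimmer one gave 0.15 and was also called. The same held for Mrps18c, at -0.09 and 0.18. In all, 8 pairs of probe sets were called for sex in both sets and 2 of them had opposite signs.

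**Figure D4:**
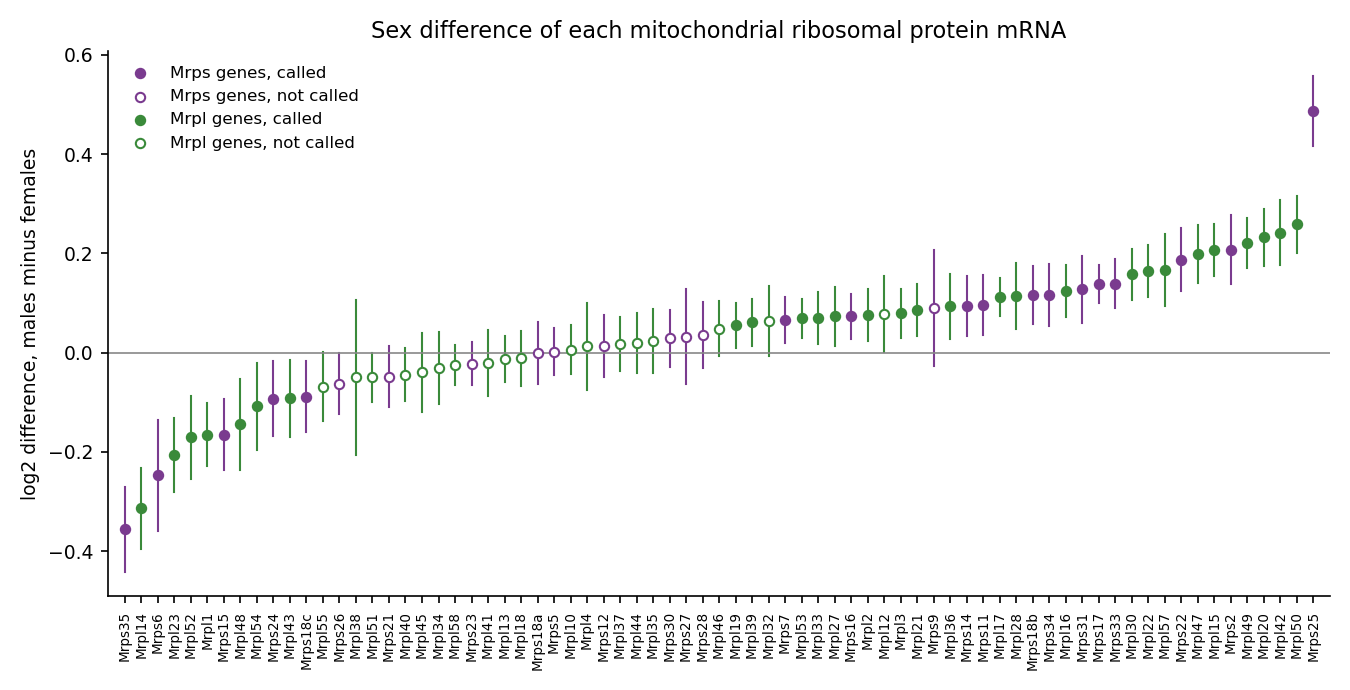
Male minus female difference of each of the 73 genes (vertical axis, log2) with its 95% interval, ordered by size. Purple marks Mrps genes and green Mrpl genes, and filled points are called. Mrps25 stands alone at 0.49, and Mrps35 lies lowest at -0.36.

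**Figure D5:**
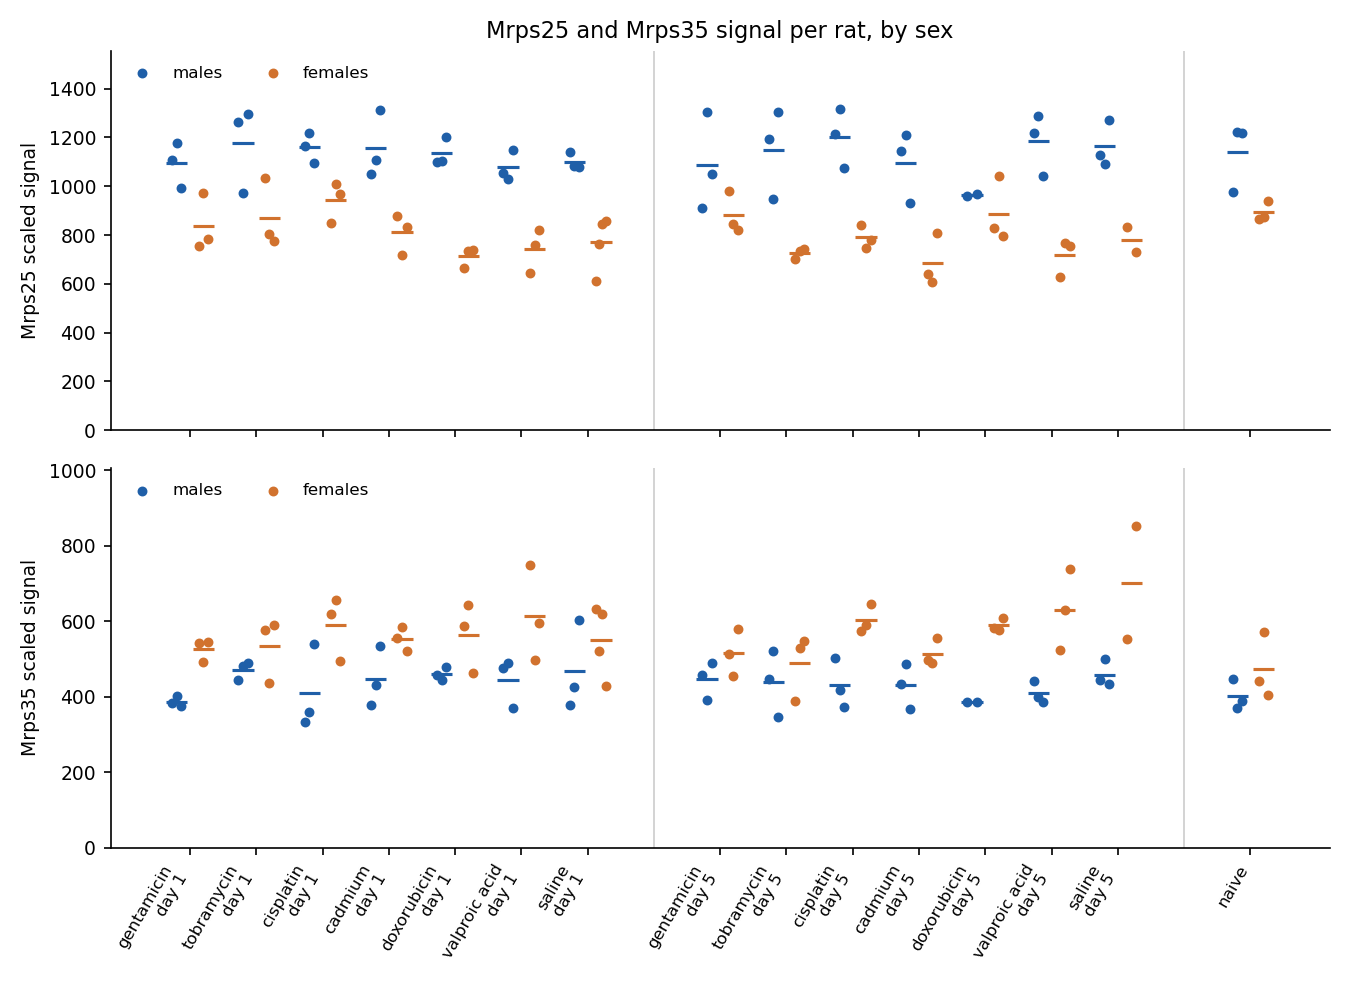
Scaled signal of Mrps25 (upper panel) and Mrps35 (lower panel) in each rat by group, with males in blue on the left and females in orange on the right of each group and short lines at the means. Mrps25 was higher in males in all 15 groups and Mrps35 lower in males in all 15.

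Other lists of mitochondrial and ribosomal genes differed between the sexes in their own ways. Of all genes tested 64.3% were called for sex, 23.9% higher in males and 40.4% higher in females. The 74 nuclear genes of the respiratory chain and ATP synthase had 36 genes called higher in males and 7 higher in females. The 40 cytosolic ribosomal proteins had 1 higher in males and 26 higher in females. Of 5 further proteins of the mitochondrial ribosome that do not carry an Mrps or Mrpl name, 5 were higher in females, among them Dap3, a small subunit protein that binds GTP, at -0.27, Aurkaip1 at -0.12 and Ptcd3 at -0.38. Among translation factors 6 of 15 were higher in males, with the elongation factor Gfm1 at 0.60 and the recycling factor Mrrf at 0.30, and 4 were higher in females. Of 16 mitochondrial aminoacyl-tRNA synthetases 1 was higher in males and 6 higher in females. The counts were 5 and 6 of 25 genes of ribosome assembly and rRNA modification and 1 and 2 of 10 of mitochondrial transcription. In the mitochondrial protein stress response they were 7 and 7 of 17.

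Markers of some kidney cell types differed between the sexes too, where 23.9% of all genes were called higher in males and 40.4% higher in females. Of 10 proximal tubule markers 6 were higher in males and 1 higher in females, with a median of 0.21. Of 5 markers of the loop of Henle and distal tubule 2 were higher in females and 0 higher in males, with a median of -0.05. Of 3 leukocyte markers 0 were called in either direction. Markers of the collecting duct were higher in females in 5 of 6 cases, podocyte markers in 3 of 3, endothelial markers in 4 of 4 and adipocyte markers in 3 of 3, with medians of -0.27, -0.31, -0.30 and -1.13. Their part in the members' sex differences was not tested.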

How the data were processed

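The authors deposited 1 linear MAS5 intensity per probe set and array, per the submitters' processing notes, for 31099 probe sets on 89 arrays. A version of MAS5 and a target scale were not given in the sources used here, and present or absent calls were not used. The deposited intensities had 2% trimmed means of 91.5 to 352, so all arrays were rescaled to a trimmed mean of 173 and written as log2(signal + 16). Left out were 57 control probe sets, 436 with several gene symbols in the platform annotation and 9780 with none. Each gene was represented by its probe set with the highest mean log2 value, and genes above the 40th percentile of all values on at least 5 arrays were tested.

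Groups were read from the sample titles. The treatment description of 5 arrays is missing or at odds with the title, and leaving them out was tried. Nothing in the labels says that rats of a group came from separate litters or days. Differences were tested with limma 3.58.1 in R 4.3.3 (eBayes with trend and robust), on the groups compared, with sex as a term and Benjamini-Hochberg adjustment. The pipeline was tested on simulated data. Arrays carry no counts, so their number limits the precision. Figures were drawn with matplotlib 3.10.9.

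The members and lists were chosen with earlier results of these data known. Named members are those with a known role (Mrps12, Mrps18a, Mrps18b, Mrps18c, Mrps30, Mrpl12, Mrpl3, Mrps22, Mrpl58), the 8 largest F values, the 8 smallest adjusted p of a comparison with calls, the 5 smallest p on either side of the sex comparison, and the 2 highest and 2 lowest changes of each aminoglycoside comparison. Alternatives covered the pseudocount, the scaling, the filter, the probe sets, the arrays in the fit, a GAPDH covariate, the control and single rats. Promoters are those of RefSeq on GRCr8.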

Additional observations from a re-analysis of the deposited data

Results flagged for a closer look

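Of 15 groups of scores and 60 groups of signals (Mrps12, Mrps25, Mrps35 and Mrps2 in 15 groups each), 1 held a rat far from the others, where chance flags about 1 in 20 groups. The tobramycin male 4M29 of day 1 had a score of -0.10, while the other 5 rats of its group lay between -0.02 and 0.0053, so that 72.5% of the range of the group lay between this rat and the next one.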

How the results depend on the processing

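For the 25 comparisons of groups, 315 alternative fits called 0 members, and the smallest adjusted p of a member in any of them was 0.10. The difference between the members' median and that of all genes moved by less than 0.06 in all these fits and those of the sex comparison. This limit, the SD of the score between rats of a group, is larger than most of the differences, so it does not show a stable sign. After doxorubicin at day 5 the difference ran from -0.06 to 0.01, and after valproic acid at day 5 from -0.06 to 0.01. After gentamicin it ran from -0.04 to 0.0034 at day 1. At day 5 it stayed below 0 after gentamicin (-0.10 to -0.04) and tobramycin (-0.07 to -0.01). It also stayed below 0 at day 5 after cisplatin (-0.10 to -0.03) and cadmium (-0.11 to -0.04). Tobramycin and valproic acid at day 1 were among the others that changed sign. The number of members called for sex fell to 20 on unscaled intensities and to 15 in the 18 control rats alone, where fewer rats were tested, and was 43 to 60 under the other alternatives (60 when all 93 tested probe sets of the members were counted). On unscaled intensities Mrpl23 (-0.13), Mrpl1 (-0.09) and Mrps15 (-0.09) were no longer called for sex, and in the control rats alone neither were Mrpl1 (-0.09) and Mrps15 (-0.17).

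Some uncalled values changed sign. With naive rats as the control, gentamicin at day 1 gave -0.013 for Mrpl4 and 0.031 for Mrpl44, and tobramycin at day 1 gave -0.0030 for Mrps25. Both drugs at day 1 gave -0.065 for Mrpl4, -0.040 for Mrps25 and 0.073 for Mrps6. At day 5 naive rats gave -0.0059 for Mrps2 after gentamicin, 0.077 for Mrps35 after tobramycin and 0.078 for Mrpl48 after both. On unscaled intensities tobramycin at day 1 gave -0.19 for Mrps25 and -0.20 for Mrpl43, and both drugs gave -0.030 for Mrps25. With the GAPDH ratio as a covariate Mrpl32 after gentamicin at day 5 had -0.12 and Mrpl50 after both drugs at day 5 had -0.017. Leaving out 1 saline rat of day 5 at a time gave -0.055 (without 1F106) to 0.16 for Mrpl32 after gentamicin, and leaving out any 1 rat gave -0.012 (without 1F106) to 0.18 for Mrpl50 after both drugs. The cause was not tested. No paired analysis was possible because the codes name single rats, with 1 array each, and link none of them across groups. The signal over background and the 5 to 7 rats per group limit what these arrays can resolve. The chosen probe set of a gene was its brightest by rule, so the other sets were dimmer.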
